A study of Danio rerio with 40 samples.

Results

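Fibronectin, the laminins and nidogens that they meet in the matrix, the matrix protein SPARC and the integrin receptors of the cell surface were described in single zebrafish heart cells sorted for an epicardial reporter. The genes were all rows whose symbol begins with fn1, sparc, lama, lamb or lamc and a digit, nid and a digit, itga or itgb. This gave 54 of 33737 rows. Of these, 2 encode fibronectin, 11 laminin chains, 3 nidogens and 3 SPARC or SPARC-like proteins, 21 encode integrin alpha chains and 11 beta chains. The other 3 (ITGB1BP1, ITGBL1 and itgb3bp) share the prefix but encode no integrin chain. Symbols exist for 65.0% of rows, so further genes of these families among rows without a symbol, and lama1, lama2, itga4 and itga7, are not analysed here.

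The 40 libraries are 40 single cells of 1 group, from ventricles of EK strain zebrafish aged 6 months that carry the tcf21:nucEGFP reporter, in which tcf21 regulatory sequence drives a nuclear green fluorescent protein. Cells were freed with Liberase DH, sorted as positive for the fluorescent protein and negative for the dead-cell dye propidium iodide, and captured on the Fluidigm C1, a microfluidic single-cell device. No injury, animal, batch or control group is named, and how many fish were pooled is not given in the sources used here. The cells were therefore treated as 1 sample and no test was made.

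Fibronectin is a secreted glycoprotein that cells pull into fibrils with their integrins. Laminins are trimers of 1 alpha, 1 beta and 1 gamma chain in the sheet of a basement membrane. Nidogens bridge the laminin of that sheet to type IV collagen. An integrin is a pair of 1 alpha and 1 beta chain, and the alpha chain largely sets which ligand is bound. In injured zebrafish hearts, fibronectin made by the epicardium is known to be needed for regeneration.

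The libraries held 340293 to 5695770 expected reads each, and 161 to 10792 genes were detected per cell (5 or more expected reads), with 2000 genes or more in 25 cells. Cell 40 stood apart with the 10792 genes and with markers of several cell types: 10 of 10 macrophage rows were detected (1117 CPM in sum), 8 of 12 cardiomyocyte rows (3215 CPM), 5 of 7 thrombocyte rows (145 CPM) and 9 of 9 epicardial rows. In cell 18, 6 of 12 cardiomyocyte rows were detected, at 8915 CPM in sum, beside 5 of 9 epicardial rows. TCF21 was detected in 37 cells and krt8, an epicardial keratin gene, in 38. The 3 cells with TCF21 under 5 reads were 7, 11 and 33. Genes of a cardiomyocyte list, 12 rows, summed to 162978.8 and 158385.4 reads per 1000000 (CPM) in cells 7 and 33 (6 and 8 rows detected), against a median of 6.65 CPM over the 40 cells. Genes of a macrophage list, 10 rows, summed to 32463 CPM in cell 11 (9 rows detected), against a median of 0. Cells 7, 11 and 33 held 839855, 3316611 and 2973277 reads, against a median of 3044068 in the 37 cells with TCF21. Levels in these 3 cells are given beside several of the results that they touch.

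Ligand genes were found in more cells than integrin genes. Of the 54 genes, 36 were detected in at least 1 cell, beside 44.9% of all rows, and 8 in at least 50% of cells, beside 3.49% of all rows. The 8 were FN1 (ENSDARG00000006526), SPARC, LAMA5, LAMB1, lama4, lamc1, NID1 and itgb2. At least 90% of cells held 2 of the 54 genes, FN1 and SPARC, beside 0.572% of all rows. In the 25 cells with 2000 genes, 10 of the 54 reached 50% of cells, beside 4.63% of all rows, and the 2 added were ITGA5 and itgae.1. Over all 40 cells, 6 of the 16 fibronectin, laminin and nidogen genes reached 50% of cells, and 1 of 32 integrin subunit genes did. The integrin share is near the 3.49% of all rows. In at least 1 cell, 13 of the 16 and 20 of the 32 were detected, beside 44.9% of all rows. At 50 CPM in place of 5 reads, 2 of the 54 genes were found in at least 50% of cells, beside 0.943% of all rows, and these were FN1 and SPARC. Reads also depend on transcript length, for which no table was at hand, so levels are compared between cells for 1 gene and not between genes. Sums over several genes are sums of reads with no correction for length. Detection at a set number of reads or CPM depends on length too, so counts of detected ligand and integrin genes carry the same limit.

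**Figure D1:**
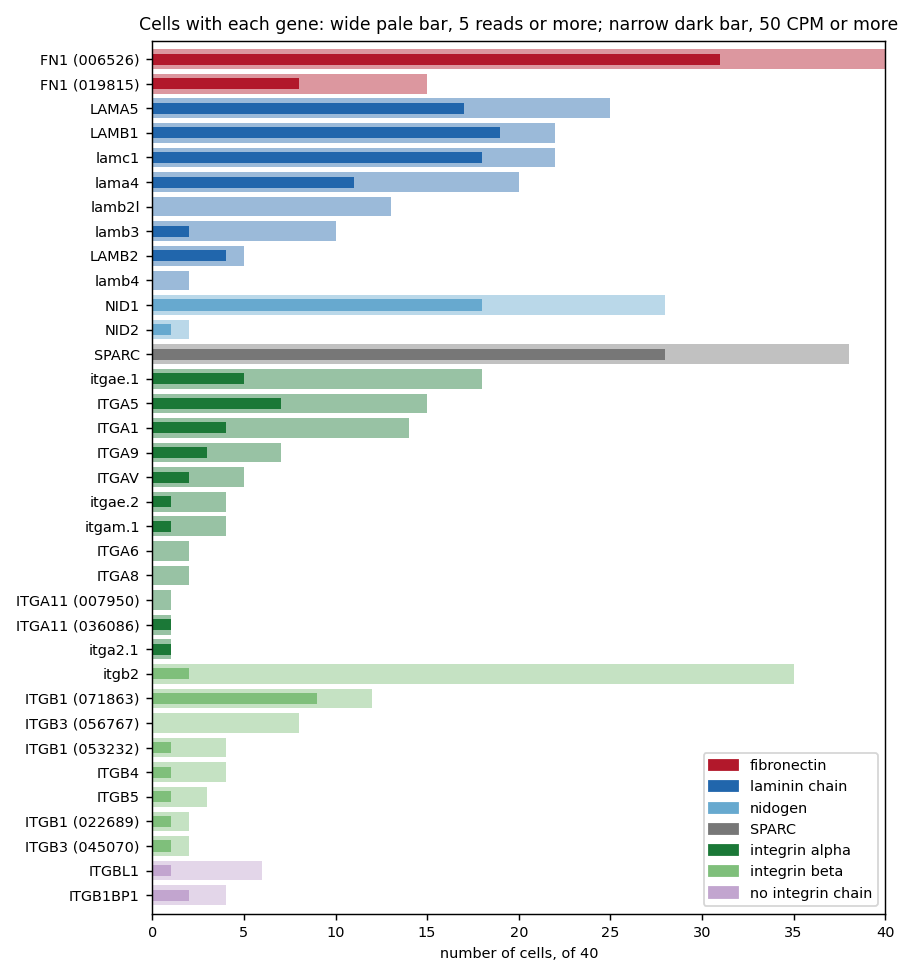
Number of the 40 cells in which each detected gene shown reached 5 expected reads (wide pale bars) or 50 CPM (narrow dark bars), coloured by role; digits in brackets are the end of the gene identifier where rows share a symbol. FN1 and SPARC kept 31 and 28 cells at 50 CPM, while itgb2 had 35 cells at 5 reads and 2 at 50 CPM.

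The 2 fibronectin rows differed in how many cells used them. FN1 (ENSDARG00000006526) was detected in 40 of 40 cells (Wilson 95% interval 91.2 to 100%), with a lowest level of 5.09 CPM in cell 4, a median of 2613 CPM and a highest of 16449.9 CPM in cell 28. It reached 50 CPM in 31 cells. Detection alone did not separate cells, since the gene had 18, 22 and 189 reads in cells 7, 11 and 33, or 21.4, 6.63 and 63.6 CPM. FN1 (ENSDARG00000019815) was detected in 15 of 40 cells (37.5%, 24.2 to 53.0%) and in none of those 3, with a median of 0.552 CPM and a highest of 1196.5 CPM in cell 2. Its 8 cells at 50 CPM were 2, 37, 40, 5, 14, 35, 13 and 22, and all 8 also had the other row at 50 CPM. In the 5 cells with the highest level of the first row (28, 22, 16, 18 and 38), the second had 6.59, 64.8, 9.80 and 5.16 CPM in the first 4 of them and no read in cell 38. The copies are related in sequence, so how the authors' estimate divided reads between them is uncertain.

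The summed level of both rows was under 50 CPM in 8 cells, of which 3 had at least 2000 genes (11, 12 and 29) and 6 had TCF21 detected. Cells 7 and 11, which had TCF21 under 5 reads and carried cardiomyocyte and macrophage genes as above, are among the 8, at 23.8 and 6.63 CPM of fibronectin. Over all 8 cells the summed fibroblast markers (10 rows, among them COL1A2 and DCN) ranged from 22.2 to 9012 CPM, with a median of 618 CPM. In the 32 cells above that fibronectin level they ranged from 172 to 28622 CPM, with a median of 12169 CPM. Cell 12 had 13.8 CPM of fibronectin beside 2041 CPM of laminin and nidogen genes, 98.1 CPM of TCF21 and 9012 CPM of fibroblast markers. Cell 29 had 6.60 CPM of fibronectin, with 37.4 CPM of TCF21 and 1422 CPM of fibroblast markers. The part of the lower summed markers, of the other cell type markers and of the genes detected in the fibronectin level was not tested.

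Of the laminin chains, LAMA5, lama4, LAMB1 and lamc1 were each detected in at least 50% of cells. LAMA5, which encodes the alpha chain of basement membranes in many epithelia, was detected in 25 of 40 cells (62.5%) and reached 50 CPM in 17, with a median of 12.5 CPM and a highest of 4809 CPM in cell 13. Cells 7 and 33 were among the 25, at 9.53 and 1.68 CPM. lama4, the alpha chain known from vessels and mesenchyme, was detected in 20 cells and reached 50 CPM in 11, with a median of 1.24 CPM and a highest of 2584 CPM in cell 19. Both alpha chains reached 50 CPM together in 6 cells (2, 3, 9, 15, 16 and 40), which is 35.3% of the LAMA5 cells and 54.5% of the lama4 cells. The other measured alpha chain gene, lama3, had no read in any cell. A count of 0 of 40 allows a share of up to 7.5%, as a limit on cells with a read and not on cells with the transcript.

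LAMB1, the usual beta chain, was detected in 22 cells and reached 50 CPM in 19, with a median of 6.00 CPM and a highest of 3676 CPM in cell 3. Cell 33 was among the 22, at 3.36 CPM. lamc1, the gamma chain of most laminins, was detected in 22 cells and reached 50 CPM in 18, with a median of 19.7 CPM and a highest of 1561 CPM in cell 16. Most cells that passed 5 reads of either gene thus also passed 50 CPM. LAMB2, the alternative beta chain, was detected in 5 cells, highest at 749.7 CPM in cell 10 and lowest at 27.4 CPM in cell 7, which had TCF21 under 5 reads. lamb3, another beta chain, was detected in 10 cells but reached 50 CPM in 2, cells 29 and 13, at 228 and 64.3 CPM. lamb4 was detected in 2 cells and lamc3 had no read.

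**Figure D2:**
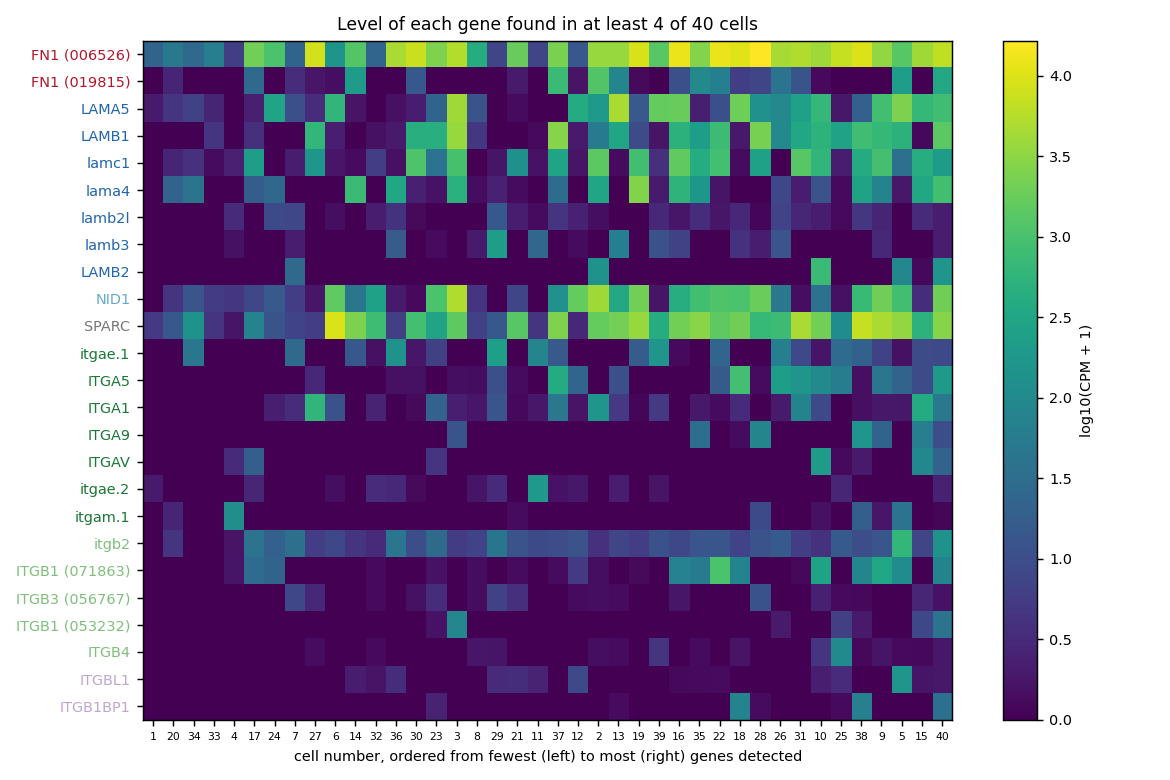
Level of each gene detected in at least 4 of 40 cells as log10(CPM + 1), with cells ordered by the number of genes detected and gene names coloured by role as in the plot of detected cells. FN1 (ENSDARG00000006526) and SPARC are bright in most columns, laminin chains and NID1 are bright in some and dark in others, and integrin rows are mostly dark.

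Transcripts of all 3 chains of a laminin trimer were detected within single cells, while protein and assembly were not measured. All chains of at least 1 trimer were detected together in 17 of 40 cells (42.5%, 28.5 to 57.8%), and at 50 CPM in 10. The trimer of LAMA5, LAMB1 and lamc1 was found in 14 cells and that of lama4, LAMB1 and lamc1 in 12. Some calls lay near the limit of 5 reads, as LAMA5 had 6 reads in cell 27 and lama4 had 5 in cell 30. With LAMB2 in place of LAMB1, the LAMA5 trimer was found in 4 cells (2, 5, 10 and 40) and the lama4 trimer in 3 (2, 10 and 40). The row lamb2l was not counted as LAMB2. LAMB1 and lamc1 were detected together in 17 cells, and in 17 of these 17 an alpha chain was detected too, beside 33 of all 40 cells with LAMA5 or lama4. No trimer was complete at 5 reads in cells 7, 11 or 33. Of 14 trimers searched, 9 had all chains in the table and 4 were found in at least 1 cell.

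Nidogen and SPARC were each represented by 1 widely detected gene. NID1, which encodes the linker nidogen, was detected in 28 of 40 cells (70.0%) and reached 50 CPM in 18, with a median of 40.6 CPM and a highest of 5166 CPM in cell 3. Cell 33 was among the 28, at 4.71 CPM. NID1 was detected in 14 of the 17 cells with a complete laminin trimer, which is 50% of the NID1 cells. Of these 14 cells, 13 had at least 2000 genes, and NID1 was detected in 20 of all 25 such cells. NID2 was detected in 2 cells, with 91.1 CPM in cell 40, and nid2b in none. SPARC, a secreted collagen-binding protein that is no integrin ligand of this list, was detected in 38 cells at a median of 798 CPM, from 0.727 CPM in cell 4 to 9410 CPM in cell 6, and reached 50 CPM in 28. As with fibronectin, it had reads in cells 7, 11 and 33, at 5.95, 3.32 and 3.36 CPM. sparcl1 and sparcl2 had no read in any cell.

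Basement membrane genes varied together in part from cell to cell. Over 40 cells, the Spearman correlations among LAMA5, LAMB1, lamc1 and NID1 ran from 0.203 to 0.577 with a median of 0.436, and over the 25 cells with 2000 genes from 0.150 to 0.502 with a median of 0.392. FN1 (ENSDARG00000006526) had a correlation of 0.712 with LAMB1 over 40 cells and 0.519 over the 25, and of 0.393 and 0.239 with LAMA5. lama4, which is not among those 4 genes, had 0.462 and 0.660 with lamc1. Its other values were lower, at 0.165 and 0.127 with LAMA5, 0.215 and 0.299 with LAMB1, and 0.270 and 0.357 with NID1. The cells share 1 sample and differ in depth. LAMB1 itself had a correlation of 0.567 with the number of genes detected over 40 cells and 0.305 over the 25. For FN1 (ENSDARG00000006526) the correlations with that number were 0.583 and 0.433. These values describe the cells, and weak ones among them are no finding.

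At 5 reads each integrin alpha row was detected in 18 cells or fewer of the 40. In the 25 cells with 2000 genes, ITGA5 was detected in 56% and itgae.1 in 52%, and any read above 0 was found for ITGA1 in 72.5%, itgae.1 in 57.5% and ITGA5 in 55% of the 40 cells. ITGA5, the classical fibronectin receptor chain, was detected in 15 of 40 cells (37.5%, 24.2 to 53.0%), of which 14 had at least 2000 genes, and in none of cells 7, 11 and 33. Its median was 0.366 CPM and its highest level 902 CPM in cell 18, and its 7 cells at 50 CPM were 18, 37, 26, 40, 31, 10 and 25. ITGA1, the alpha chain of a collagen and laminin receptor, was detected in 14 cells and reached 50 CPM in 4, at 597 CPM in cell 27, 388 CPM in cell 15, 162 CPM in cell 2 and 77.8 CPM in cell 31. In both genes a few cells held most of the signal: cells 18, 37 and 26 held 70.2% of the summed CPM of ITGA5, and cells 27, 15 and 2 held 82.4% of that of ITGA1. Cell 18 carried cardiomyocyte rows as above, and in cell 27, 4 of 12 such rows were detected, at 2511.5 CPM in sum. Cell 26 had 1 of 6 endothelial, 1 of 5 mural and 1 of 4 lymphocyte rows detected (1619, 3363 and 656 CPM). Cells 37, 15 and 2 had 5.62, 1.74 and 6.25 CPM of the cardiomyocyte list. The part of these markers in the integrin levels was not tested.

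ITGA9, known in mammals as a receptor chain for tenascin C, was detected in 7 cells, from 9.31 CPM in cell 40 to 157 CPM in cell 38. ITGAV, which binds the RGD sequence of fibronectin and vitronectin, was detected in 5 cells, at 207 CPM in cell 10, 90.7 CPM in cell 15 and at most 21.1 CPM in the others. ITGA8, another RGD receptor chain, was detected in cells 16 and 40 at 39.5 and 37.4 CPM. Collagen receptor chains besides ITGA1 were rarer still: itga2.1 and ITGA11 (ENSDARG00000036086) were each detected in cell 38 alone, at 63.0 and 319 CPM. The other ITGA11 row (ENSDARG00000007950) was detected in cell 23 alone, at 5.50 CPM, and ITGA10 in none.

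Those chains of the dedicated laminin receptors that had a row with a symbol were detected in few cells, and itga7 had no such row. ITGA3 and itga3a had no read in any of the 40 cells, and nor had itga6b. ITGA6 was detected in cells 5 and 4, at 24.3 and 5.81 CPM, and itga6l in none at 5 reads. ITGB4, which pairs with ITGA6 in hemidesmosomes, was detected in 4 cells, of which cell 25 had 103 CPM and the others at most 3.50 CPM, and in no cell together with ITGA6. A laminin receptor outside the integrins, the dystroglycan gene DAG1, was detected in 21 cells with a median of 10.5 CPM and a highest of 1215 CPM in cell 38. It was found in 13 of the 17 cells with a complete trimer (76.5%), which is 61.9% of the DAG1 cells. Of these 13 cells, 12 had at least 2000 genes, and DAG1 was detected in 19 of all 25 such cells.

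Among beta chains, ITGB1, the partner of most known matrix receptors, was spread over 3 rows. ITGB1 (ENSDARG00000071863) was detected in 12 cells and reached 50 CPM in 9, with a median of 0.249 CPM and a highest of 1054 CPM in cell 22, followed by 335 CPM in cell 9 and 280 CPM in cell 10. ITGB1 (ENSDARG00000053232) was detected in 4 cells, highest at 87.8 CPM in cell 3, and ITGB1 (ENSDARG00000022689) in 2, at 788 CPM in cell 3 and 39.9 CPM in cell 40. Cell 3, which had the highest value of both, had no read of the first row. At least 1 of the rows was detected in 15 of 40 cells (37.5%) and reached 50 CPM in 10, and 2 or more were detected in cells 3 and 40 only. The copies may share reads, so the sum over rows is more certain than each row.

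The beta chain found in most cells was the one known from leukocytes. itgb2, which encodes the beta chain of leukocyte integrins, was detected in 35 of 40 cells (87.5%), but its median was 8.30 CPM and it reached 50 CPM only in cells 5 and 40, at 614 and 146 CPM. In cell 11, which carried macrophage genes, it had 7.83 CPM, and in cell 7, which carried cardiomyocyte genes, 35.3 CPM. Of its 37 values above 0, 35 were not whole numbers, that is, they included reads that the authors' estimate divided among genes. The alpha chain itgae.1, known from lymphocytes of epithelia, was detected in 18 cells with a median of 0.655 CPM and 22 of its 23 values above 0 were not whole. Cells 7 and 11 were among the 18, at 27.5 and 82.7 CPM. lamb2l was detected in 13 cells at no more than 13.6 CPM, with 25 of 27 values not whole, and lamb3 had 15 of 16. FN1 (ENSDARG00000006526) and SPARC, found in most cells, had 28 and 30 of 40 values not whole, NID1 17 of 37 and ITGA1 17 of 29. For LAMA5, by contrast, 3 of 35 values were not whole, and for ITGB1 (ENSDARG00000071863) 2 of 21. With median-of-ratios scaling in place of CPM, the mean level over 40 cells was 148 for itgae.1 (22.7 CPM), 117 for itgb2 (29.7 CPM), 54.0 for lamb3 (9.24 CPM) and 17.6 for lamb2l (1.71 CPM). What the divided reads contribute to the low, broad values was not tested.

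ITGB3, a beta chain of RGD receptors, was detected in 10 cells over its 2 rows. ITGB3 (ENSDARG00000056767) was found in 8 at no more than 10.7 CPM, and ITGB3 (ENSDARG00000045070) in cell 5 at 467 CPM and in cell 40 at 3.69 CPM. The mean of the first row was 0.952 CPM, and 13.7 with median-of-ratios scaling. ITGB5 was detected in 3 cells, with 61.0 CPM in cell 6, and ITGB6, ITGB8 and itgb7 had no read. itga2b, the thrombocyte alpha chain, had no read either.

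Both chains of a known integrin pair were detected in the same cell in 16 of 40 cells (40%, 26.3 to 55.4%) and at 50 CPM in 4 (10, 18, 38 and 40). Of these 4, cells 18 and 40 carried the markers of other cell types given above, whose part in the counts was not tested. With any read above 0 the share was 67.5%, and in the 25 cells with 2000 genes it was 56%. Pairs were taken from mammalian integrins. Of 24 pairs searched, 18 had both chains in the table and 11 were found in at least 1 cell. ITGA5 with ITGB1, the classical fibronectin receptor, was the most frequent. It was found in 9 cells (22.5%, 12.3 to 37.5%), which is 60% of the cells with ITGA5 and 60% of those with ITGB1, and all 9 had at least 2000 genes. Of the 25 cells with 2000 genes, 14 had ITGA5 and 13 had ITGB1. ITGA9 with ITGB1 was found in 6 cells, and ITGA1 with ITGB1, ITGAV with ITGB1 and ITGAV with ITGB3 in 4 each. For ITGAV with ITGB3, calls of ITGB3 (ENSDARG00000056767) lay near the limit, at 5.05, 7.92 and 8.02 reads in cells 10, 15 and 23. In cell 40 ITGB3 (ENSDARG00000045070) had 3.69 CPM, and no cell had this pair at 50 CPM. ITGA6 with ITGB1, the only laminin-specific pair found, was in cell 5 alone, while pairs of itga7 could not be found, as no row had that symbol. itgam.1 and itgb2 met in 3 cells (5, 28 and 38), with itgb2 at 11.2 and 8.76 CPM in cells 28 and 38.

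**Figure D3:**
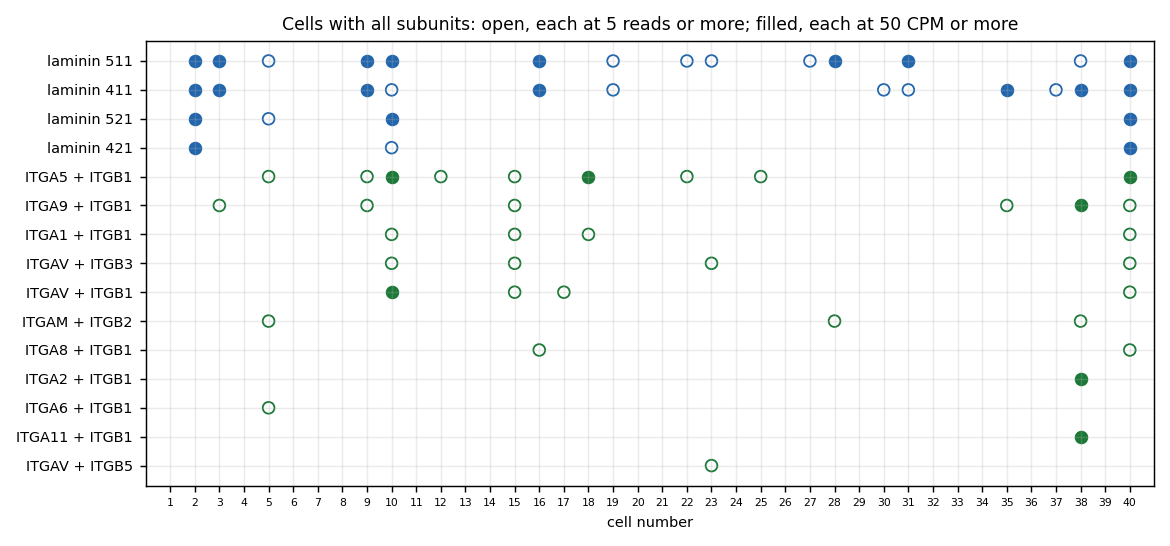
Cells in which all chains of a laminin trimer (blue) or both chains of an integrin pair (green) were detected, by cell number; open circles mean each chain at 5 reads or more, filled circles each at 50 CPM or more. Laminin names give the numbers of the alpha, beta and gamma chain. The LAMA5 and lama4 trimers with LAMB1 have 14 and 12 cells, ITGA5 with ITGB1 has 9, and most integrin circles are open.

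Fibronectin was then set beside receptor pairs from a fixed list in the same cell. Of 7 fibronectin-binding pairs searched, 6 had both chains in the table: ITGA5, ITGA8 or ITGAV with ITGB1, ITGAV or itga2b with ITGB3, and ITGAV with ITGB6. ITGA9 with ITGB1, found in 6 cells, was not on that list and is not counted here. Fibronectin together with both chains of such a pair was detected in 12 of 40 cells (30%, 18.1 to 45.4%), at 50 CPM in 3 (10, 18 and 40), and with any read above 0 in 50%. Since FN1 was detected in every cell, this count is set by the integrin chains and by which pairs were searched. Cell 23 entered it through ITGAV with ITGB3 alone, at 8.02 reads of ITGB3 (ENSDARG00000056767). FN1 was found without any ITGB1 row in 25 of 40 cells at 5 reads. Of the 17 cells with a complete laminin trimer at 5 reads, 11 had an integrin pair, and the 6 without one were 2, 19, 27, 30, 31 and 37. Any searched pair counted here, whether or not it binds laminin. Of the 11 cells, 10 had at least 2000 genes, and a pair was found in 14 of all 25 such cells. At 50 CPM, 7 of the 10 cells with a complete trimer had no pair. Missed and absent transcripts cannot be told apart for a chain below 5 reads.

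Summed per cell, fibronectin, laminin and nidogen genes had a median of 4996 CPM, from 13.02 CPM in cell 4 to 20930.2 CPM in cell 28. Integrin subunit genes summed to a median of 125 CPM, from 0 in cell 33 to 1290.3 CPM in cell 5. With median-of-ratios scaling these medians were 5312 for ligand genes and 270 for integrin genes. A median of 5 ligand genes and 3 integrin genes was detected per cell. Cells with more genes detected had more of both: the Spearman correlation with genes detected was 0.723 for ligand genes and 0.734 for integrin genes over 40 cells, and 0.524 and 0.705 over the 25. The summed ligand and integrin levels had a correlation of 0.537 over 40 cells and 0.270 over the 25. In cells 7, 11 and 33 the ligand sum was 74.9, 31.9 and 74.3 CPM, against a median of 5497 CPM in the 37 cells with TCF21. Low sums were not particular to them. Cells 1, 4, 20 and 34, with TCF21 detected, had 23.3, 13.02, 80.7 and 88.7 CPM. Genes detected were 161, 808, 374 and 399 in those cells, and 1203, 2143 and 746 in cells 7, 11 and 33.

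**Figure D4:**
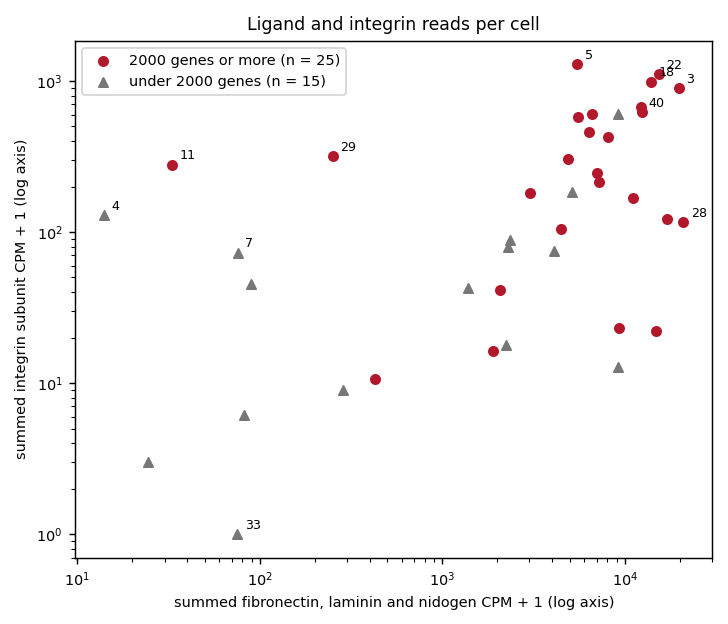
Summed integrin subunit CPM + 1 against summed fibronectin, laminin and nidogen CPM + 1 for each of 40 cells on log axes, with circles for cells of 2000 genes or more and triangles for the others; numbers name cells. Cells 4, 11 and 29 lie at the upper left, with 129, 277 and 315 CPM of integrin genes and 13.02, 31.9 and 250.2 CPM of ligand genes, and cell 33 is at 0 on the integrin axis.

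Partner genes of the adhesion system were taken as lists. Among 26 rows for other integrin ligands, at least 50% of cells held 4, between 10 and 50% held 6, smaller shares held 7, and 9 went undetected. The counts at 50% of cells in these lists stand beside 3.49% of all rows. Of all 33737 rows, 5118 lay between 10 and 50% of cells, 8851 were rarer and 18590 went undetected. The 4 ligand rows were CCN1 in 38 cells, thbs2b in 25, CCN2 in 23 and MFGE8 in 20, with medians of 428, 2.65, 4.04 and 1.59 CPM. At 50 CPM, 1 of the 26 rows was found in at least 50% of cells, beside 0.943% of all rows. thbs2a was detected in 14 cells and reached 50 CPM in 11, while both VTN rows (vitronectin), POSTN and spp1 were detected in none. Of 14 basement membrane rows, 1 reached 50% of cells, COL4A1 in 22, and HSPG2, the perlecan gene, was detected in 17. Among 22 focal adhesion rows, which encode the proteins that tie integrins to actin, 2 reached 50%, flna in 28 and TNS1 in 23, while 10 rows lay between 10 and 50%, 8 were rarer and 2 undetected. FERMT2 (kindlin), an integrin activator, was detected in 19.

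Of 15 rows for other matrix receptors and integrin-associated membrane proteins, 4 reached 50% of cells, 3 lay between 10 and 50%, 2 were rarer and 6 undetected. Each of the 4 was detected in more cells than any integrin alpha row or ITGB1 row, though itgb2, in 35 cells, exceeded DAG1, in 21. Such counts also depend on transcript length. sdc4, the heparan sulfate proteoglycan that binds fibronectin beside integrins, was detected in all 40 cells with a median of 7211 CPM. The tetraspanin genes CD81 (ENSDARG00000036080) and CD63, whose proteins associate with integrins, were each detected in 38 cells, with medians of 641 and 465 CPM, and DAG1 was the last. These lists were chosen with earlier results of the data known, and their counts are a description.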

How the data were processed

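Whole-transcript libraries of 40 sorted single cells were measured. The deposited table holds expected counts, that is, estimated reads per gene from the authors, which need not be whole (5.63% of values were not). Bowtie2, RSEM 1.2.12 and build Zv9 are named per the submitters' processing notes, without their roles, settings or annotation. Without molecular identifiers, reads cannot be taken as separate molecules, and every interval or limit reflects only how many cells were counted.

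Counts were scaled to 1000000 per cell (CPM) with Python 3.11.15 and pandas 2.3.3. A gene was detected at 5 or more expected reads, and 50 CPM was a stricter level. All 40 cells entered, since the genes were to be described over all of them, and the 25 with at least 2000 genes are given beside them. Total reads were 340293 to 5695770. No 2 cells had identical values, and no doublet caller was run. Symbols came from the supplied gene name table, and copies (such as itga2.1) counted as their chain in pairs and trimers. The rows lamb2l and itga6l were not counted as LAMB2 or ITGA6. Shares have a 95% Wilson interval (scipy 1.17.1), and a count of 0 cells allows up to 3 of 40. Values are given for members detected in at least 25% of cells, for chains of pairs found in at least 10%, and for those at 1000 CPM or more in any cell. Other members named with a value (LAMB2, NID2, ITGA8, ITGA11, itga2.1, ITGA6, ITGB4, ITGB5, itgam.1, itgae.2, ITGB1BP1 and ITGBL1) were chosen after their values were seen. Of each partner list up to 4 rows of the highest mean level were to be named, and thbs2b, MFGE8, VTN, POSTN and spp1 were added after their values were seen. The counting of pairs and trimers was tested on simulated data. The planned ratio of ligand to integrin level per length was left out, since no transcript lengths were at hand. The members and lists were chosen with earlier results of these data known, and alternatives are in the closing section. Values of 1 member are not reported here.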

Additional observations from a re-analysis of the deposited data

How the results depend on the processing

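The counts of cells depended on the detection level. With any read above 0, 14 members were found in at least 50% of cells (8 at 5 reads), a fibronectin integrin with fibronectin in 50% of cells (30%), a complete laminin trimer in 70% (42.5%) and any integrin pair in 67.5% (40%). At 50 CPM these values were 2 members, 7.5%, 25% and 10%. With every cell thinned to 340292 reads they were 5 members, 17.5%, 35% and 22.5%, and at 20 reads 7 members, 20%, 37.5% and 30%. In the 25 cells with 2000 genes any integrin pair was found in 56%, and the ligand and integrin medians were 7025 and 277 CPM. Leaving out cell 40, or the 3 cells with TCF21 under 5 reads, moved none of the 6 summary results beyond its interval, the spread over cells or 1.5 times its count. For the shares and the summed levels these limits were too wide to decide whether those cells matter. Dropping 1 or 3 of 40 cells could not take a share out of its interval. The spread over cells was larger than the median for both sums. The members found in at least 50% of cells were 7 without cell 40 and 8 without the 3 cells. With median-of-ratios scaling (163 genes), in which a cell need not sum to 1000000, the median integrin sum was 270 and the ligand sum 5312. With SPARC counted as a ligand, the ligand sum was 6696 CPM. Of 21 single members, the share of cells left its interval for 13 with any read above 0 and for 5 in the 25 cells, and the mean level moved by more than 1 SD for 4 (lamb2l, lamb3, itgae.1 and ITGB3, ENSDARG00000056767) under median-of-ratios scaling. The cause of these moves was not tested. The ratio of ligand to integrin level per length and its alternatives were not run. No paired analysis was possible because there is 1 group. For genes with a median under 1 CPM, among them ITGA5, ITGA1 and the second FN1 row, that level lies below 5 reads at the median depth of 3008672 reads.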

Other observations

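Genes that share the integrin prefix but encode no integrin chain were also read. ITGB1BP1, whose mammalian protein binds the tail of the beta1 chain and restrains its activation, was detected in 4 cells, at up to 77.1 CPM in cell 18. ITGBL1, a secreted protein with integrin-like repeats, was detected in 6 cells, with 164 CPM in cell 5 and a median of 0 over the 40 cells, and none of its 15 values above 0 was a whole number. itgb3bp had no read in any cell.

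Cells 4, 11 and 29 had 129, 277 and 315 CPM of integrin rows in sum, and 13.02, 31.9 and 250.2 CPM of ligand rows, with no correction for transcript length. In cell 4, which had 808 genes detected and 847 CPM of TCF21, the leukocyte alpha chain itgam.1 had 119 CPM. In cell 11, itgae.2 and itgae.1 had 186 and 82.7 CPM. In cell 29, itgae.1 had 243 CPM. In these cells itgb7, the mammalian partner of the itgae chain, had no read, and itgb2, the partner of itgam.1, had 0.654 CPM in cell 4.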
